A study of Homo sapiens with 39 samples.

Results

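The MAGE-A, MAGE-B, MAGE-C, GAGE, PAGE, XAGE, SSX and CTAG gene families and PRAME encode cancer-testis antigens, and their RNA was followed gene by gene and as family sums in 39 RNA-seq libraries of melanoma cell lines. Members were taken by name, with SSX2IP left out. The rule took every other protein-coding gene of the deposited table whose symbol starts with MAGEA, MAGEB, MAGEC, GAGE, PAGE, XAGE, SSX or CTAG followed by a digit, plus PRAME. This gave 62 of 60671 genes: 12 MAGEA, 11 MAGEB, 3 MAGEC, 13 GAGE, 6 PAGE, 5 XAGE, 8 SSX and 3 CTAG genes, and PRAME. PRAME lies on chromosome 22 and the other 61 lie on chromosome X. The rule uses names and biotypes, and no measured value.

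Cancer-testis genes are normally transcribed in the male germ line and are silent in most other tissues, where their promoters carry methylated CpG dinucleotides. Many tumours, melanoma among them, transcribe some of them again, and peptides of the proteins shown on HLA molecules can be recognised by T cells, which is why MAGE-A4, NY-ESO-1 (the product of CTAG1A and CTAG1B) and PRAME have been pursued as targets of immunotherapy. Most of the X-linked families arose by recent gene duplication and sit in clusters of near-identical copies.

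The lines are A375 and WM115, established human melanoma lines. Both were sampled as wild type (WT) and as clones lacking a region described as an enhancer of SOX10, which encodes a neural crest and melanocyte transcription factor. The deleted region was R1 in clones 1.1 and 1.2 and R4 in clones 4.1 and 4.2, and a clone number names a different clone in each line. A375 gave 4 WT libraries, 3 of clone 1.1, 4 of clone 1.2, 4 of clone 4.1 and 3 of clone 4.2. WM115 gave 4 WT libraries, 5 of clone 1.1, 3 of clone 1.2, 3 of clone 4.1, 3 of clone 4.2 and 3 of clone 1.3, which was kept apart from both regions because its title points to R1 and its genotype label to R4. All libraries of a clone descend from 1 clone, so a comparison with WT describes that clone. The labels do not say that libraries of a group came from separate cultures, so p-values measure the spread between these libraries, which may be technical.

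Values are TPM, a share of the library corrected for gene length, so levels can be compared between genes. Read depth is not given. All members summed to 0.1999% to 0.3525% of a library in A375, and to 0.0616% to 0.1173% in WM115. SOX10 was between 381 and 876 TPM in A375 and between 272 and 553 TPM in WM115, apart from library 3 of WM115 clone 1.2 at 9.56 TPM. That library also had the lowest summed level of 8 melanocytic markers, 29.4 TPM against 661 to 2890 TPM in the libraries of the other WM115 groups, so calls of members in this clone are also given without it. The melanocyte markers MLANA and PMEL were at most 0.976 and 2.54 TPM in A375. In A375 libraries 0.968% to 4.92% of all TPM belonged to genes of the mitochondrial genome, and in WM115 libraries 4.71% to 19.4%. A list of 7 germ cell markers, among them DDX4, DAZL and PRM1, summed to at most 0.531 TPM in any A375 library and 0.586 TPM in any WM115 library. None of those 7 genes reached 1 TPM, and 4 leukocyte markers summed to at most 1.19 TPM.

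The upstream sequences of the members whose levels differ most in what follows are shown first, because CpG methylation of such windows is the textbook control of these genes. Each window is the 250 bases before a RefSeq start site (GRCh38.p14), written in the direction of transcription, in lower case with every CG dinucleotide in capitals. The GAGE12C window (chrX:49531927-49532176, plus strand) has 8 CpGs and is letter for letter the same in 9 GAGE members (GAGE1, GAGE2A, GAGE12C, GAGE12D, GAGE12E, GAGE12F, GAGE12H, GAGE12J and GAGE13). The SSX2 window (chrX:52707179-52707428, minus strand) has 7 and is shared with SSX2B. PAGE2 (chrX:55088768-55089017, plus strand) has 11. Its neighbour PAGE5 (chrX:55220096-55220345, plus strand), printed beside it though called in no clone, has 9. MAGEC1 (chrX:141903644-141903893, plus strand) has 11 and MAGEC2 (chrX:142205291-142205540, minus strand) has 6. MAGEA3 (chrX:152698544-152698793, plus strand), printed as a member called in no clone, has 15 and shares its window with MAGEA6.
GAGE12C: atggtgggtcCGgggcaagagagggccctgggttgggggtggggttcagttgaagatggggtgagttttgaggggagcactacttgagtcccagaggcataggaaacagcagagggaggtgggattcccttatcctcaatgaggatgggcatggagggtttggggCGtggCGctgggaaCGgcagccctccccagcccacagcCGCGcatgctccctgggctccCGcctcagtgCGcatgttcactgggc
SSX2: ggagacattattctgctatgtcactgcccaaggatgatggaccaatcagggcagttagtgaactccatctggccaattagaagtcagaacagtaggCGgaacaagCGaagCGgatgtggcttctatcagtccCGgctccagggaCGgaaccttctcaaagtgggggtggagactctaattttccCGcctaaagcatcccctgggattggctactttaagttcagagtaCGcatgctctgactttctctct
PAGE2: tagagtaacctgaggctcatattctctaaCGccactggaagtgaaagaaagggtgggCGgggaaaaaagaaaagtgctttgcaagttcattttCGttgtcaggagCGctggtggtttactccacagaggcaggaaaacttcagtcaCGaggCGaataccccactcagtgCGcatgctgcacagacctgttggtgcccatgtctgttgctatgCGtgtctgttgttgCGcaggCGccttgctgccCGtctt
PAGE5: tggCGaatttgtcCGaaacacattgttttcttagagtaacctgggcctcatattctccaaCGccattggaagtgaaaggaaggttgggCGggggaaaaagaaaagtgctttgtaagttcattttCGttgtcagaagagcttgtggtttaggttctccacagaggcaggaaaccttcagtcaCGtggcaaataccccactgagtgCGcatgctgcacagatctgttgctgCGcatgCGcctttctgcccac
MAGEC1: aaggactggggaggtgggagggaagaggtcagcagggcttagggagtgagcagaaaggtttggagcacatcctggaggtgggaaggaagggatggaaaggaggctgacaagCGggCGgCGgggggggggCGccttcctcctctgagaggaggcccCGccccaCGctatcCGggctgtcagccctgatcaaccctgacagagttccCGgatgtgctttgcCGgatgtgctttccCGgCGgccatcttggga
MAGEC2: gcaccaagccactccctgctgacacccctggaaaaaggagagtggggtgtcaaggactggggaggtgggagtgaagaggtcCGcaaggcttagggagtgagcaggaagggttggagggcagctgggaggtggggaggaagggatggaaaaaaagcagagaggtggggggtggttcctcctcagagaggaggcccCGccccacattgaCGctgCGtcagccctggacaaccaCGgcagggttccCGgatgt
MAGEA3: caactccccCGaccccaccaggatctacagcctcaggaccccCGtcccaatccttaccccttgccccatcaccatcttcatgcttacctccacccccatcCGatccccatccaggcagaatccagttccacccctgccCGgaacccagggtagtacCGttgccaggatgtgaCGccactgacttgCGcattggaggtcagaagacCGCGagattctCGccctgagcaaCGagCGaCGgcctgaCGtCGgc

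RefSeq start sites were found for 54 members, with 72 starts in all. Their windows held a median of 8 CpGs (1 to 18), against a median of 11 (0 to 67) over 35116 starts of all genes. Short motifs of factors linked to methylation-sensitive promoters were searched on both strands. The ETS core CCGGAA was in 6.9% of the members' windows and 14.5% of all windows, the E2F-type motif GCGGGA in 37.5% and 23.5%, and the E-box CACGTG in 8.3% and 6.3%. Identical windows of different members count separately in these shares. The GAGE12C window, which has GCGGGA, counts for 9 members and the SSX2 window, which has it too, for 2. GCGGGA was in the GAGE12C and SSX2 windows, CACGTG was in that of PAGE5 and not in that of PAGE2, and CCGGAA was in that of MAGEA3 and MAGEA6. Such a match is a description of letters and not of a bound site.

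The 40 of 62 members with a mean of at least 1 TPM in some group included 29 with a mean of at least 10 TPM. The other 22 stayed below, the highest group mean among them being 0.963 TPM, and 4 of these (MAGEB4, MAGEB5, GAGE12B and PAGE4) were listed at 0 in every library. In A375 between 19 and 34 members reached 1 TPM in a library, and in WM115 between 12 and 26. In A375 WT the MAGEA sum made up 39.05% of the members' TPM, the XAGE sum 21.96%, the PAGE sum 16.02%, the CTAG sum 8.94%, the GAGE sum 4.74%, PRAME 4.61%, the MAGEC sum 3.15% and the SSX sum 1.52%. In WM115 WT the MAGEA sum made up 41.44%, the SSX sum 25.41%, the PAGE sum 19.99% and the MAGEC sum 12.62%, and no other family more than 0.42%.

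**Figure D1:**
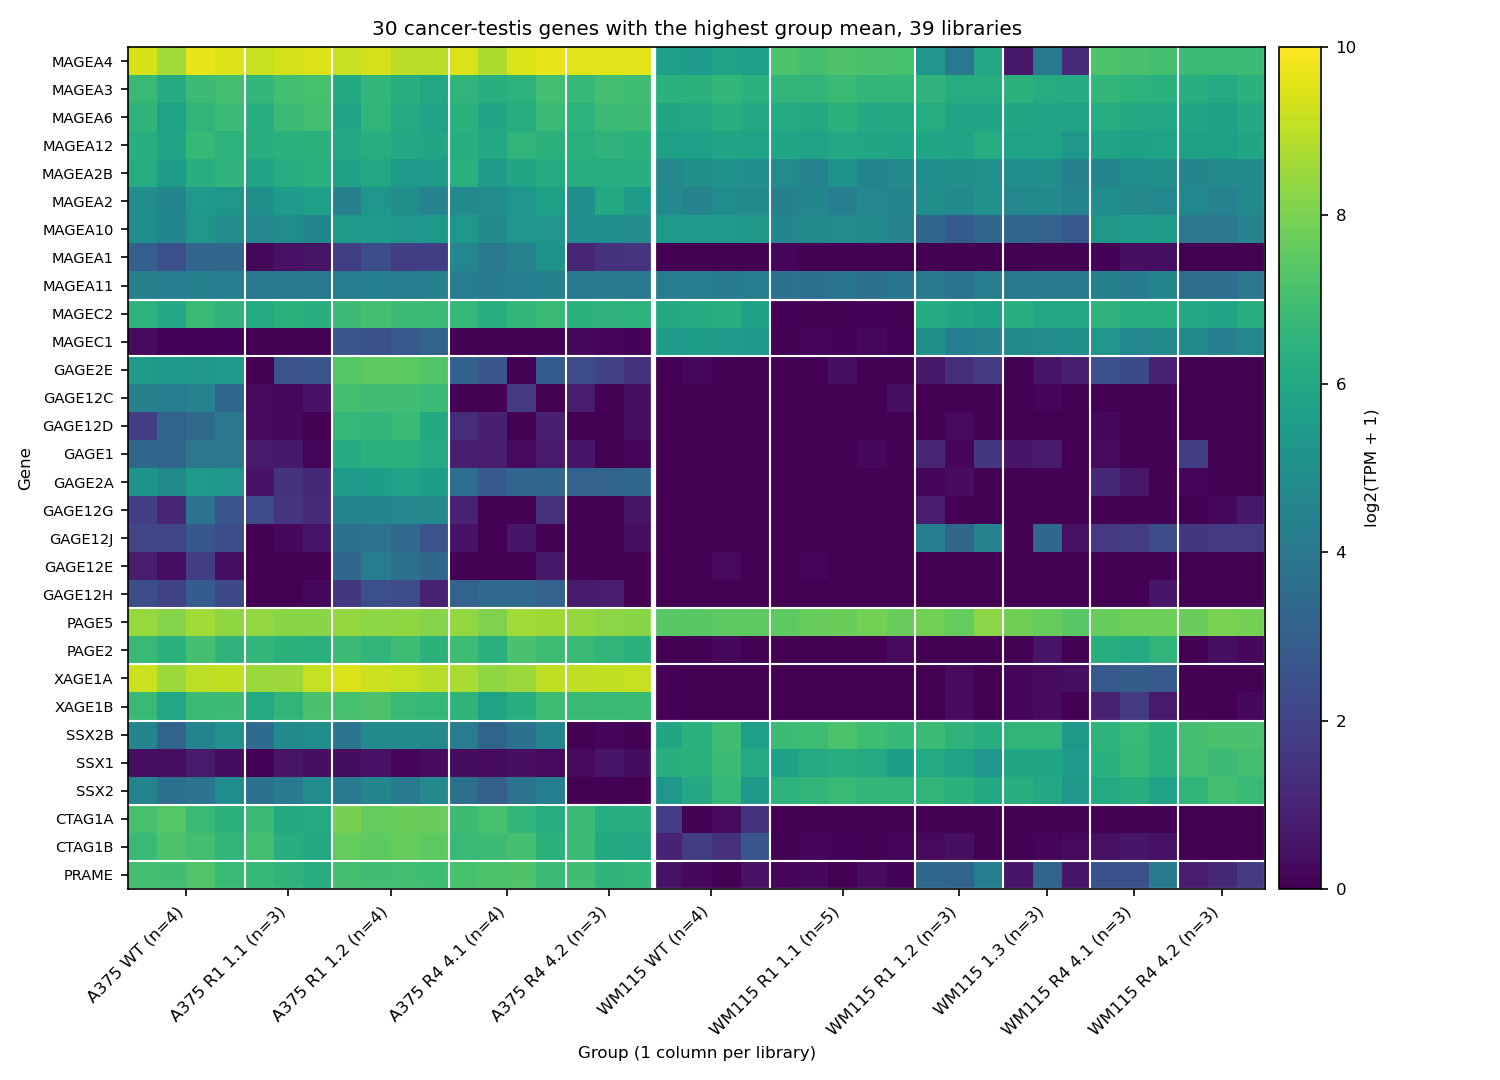
Level of the 30 members with the highest group mean in each of the 39 libraries, as log2(TPM + 1), with 1 column per library, white lines between groups and families, and a wide white line between A375 and WM115. GAGE rows change between A375 groups, MAGEC1 and MAGEC2 are dark in WM115 clone 1.1, SSX2 and SSX2B are dark in A375 clone 4.2, PAGE2 is bright in WM115 only in clone 4.1, and MAGEA3, MAGEA6, MAGEA12, MAGEA11 and PAGE5 are above 11 TPM in every library.

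Differences were tested on log2(TPM + 1) with limma across all genes with at least 1 TPM in at least 3 libraries of the line (16692 in A375, 16997 in WM115). Below, a difference is on that scale, clone minus WT, a p is adjusted by the Benjamini-Hochberg method over all those genes, and a call requires an adjusted p below 0.05 together with a difference of at least 1 in either direction. A log2(TPM + 1) difference understates the change of genes with low TPM. In A375 33 members were tested and in WM115 28.

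In A375, 0 members were called higher and 10 lower in clone 1.1, where 0.186% and 0.545% of all genes tested were called higher and lower. In clone 1.2, 9 were called higher and 1 lower (2.57% and 1.44% of all genes). In clone 4.1, 1 was called higher and 7 lower (0.246% and 0.407%), and in clone 4.2, 0 and 11 (0.108% and 0.365%). The median difference of the tested members was -0.45 in clone 1.1, 0.30 in clone 1.2, -0.12 in clone 4.1 and -0.44 in clone 4.2, against 0.01, 0.07, -0.02 and 0.06 over all genes tested. In WM115, 1 member was called higher and 3 lower in clone 1.1 (1.22% and 3.66% of all genes), 3 and 2 in clone 1.2 (4.49% and 3.11%), 1 and 3 in clone 1.3 (0.424% and 0.194%), 11 and 1 in clone 4.1 (3.2% and 4.37%), and 3 and 2 in clone 4.2 (2.52% and 4.08%). Of the 28 members tested in WM115, 9 would have failed the filter without the libraries of 1 group, 7 of them without those of clone 4.1. Such a member had to differ, so the WM115 counts are a description. For the members concerned the p given below is that of the same fit without the filter, over all genes with any TPM in the line. The exception is GAGE2E, whose p-values without library 3 of clone 1.2 are from fits with the filter. Without library 3 of clone 1.2, 4 members were called in that clone instead of 5, and the one lost was GAGE2E (1.16 with the library and 0.93 without it, adjusted p = 0.1).

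Over the clones of a line, 16 of 33 members were called in at least 1 A375 clone (4.97% of all genes tested), and 16 of 28 in at least 1 WM115 clone (17.9%). In A375, 6 members were called in all 4 clones (0.0719% of all genes tested). In WM115, CTAG1B was called in all 5 (0.0824%). Called in opposite directions in different A375 clones were 6 members, GAGE1, GAGE2E, GAGE12C, GAGE12D, GAGE12J and MAGEA1 (0.246% of all genes tested), and in WM115 MAGEA4 (0.718%). As a plainer measure, a member counted as on and off when all libraries of 1 group had at least 1 TPM and all libraries of another had less. This held for 14 of 33 members in A375, 42.4%, against 4.66% of all genes tested, and for 13 of 28 in WM115, 46.4%, against 8.59%. In A375, 10 of these members were on in WT and off in a clone and 1 was off in WT and on in a clone. In WM115 these numbers were 3 and 9. Of the tested members, 2 in A375 and 9 in WM115 passed the filter through 1 group alone, which favours being counted as on and off. Most A375 members counted as on and off or called in opposite directions were GAGE copies. Such near-identical copies can share reads and are not independent, so all these counts are a description.

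**Figure D2:**
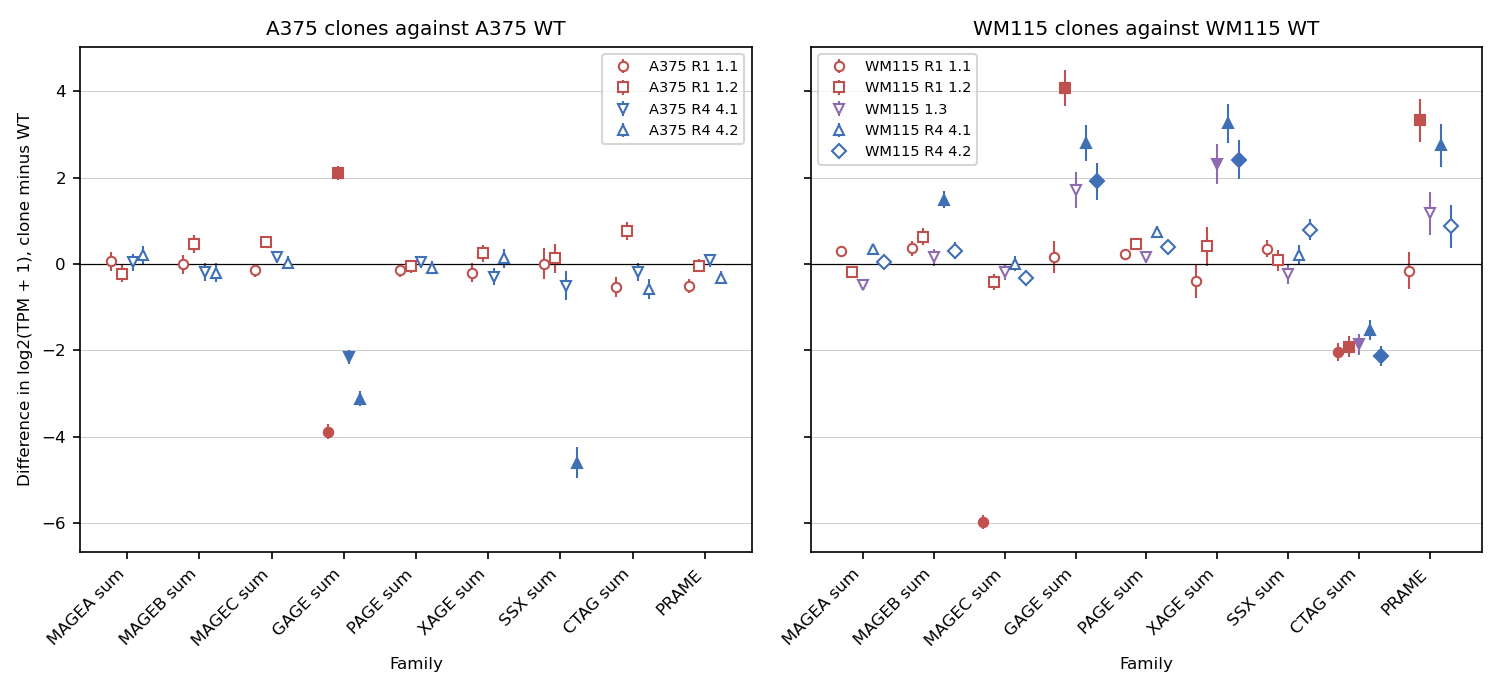
Difference of each family sum and of PRAME from WT in log2(TPM + 1) (vertical axis), for the A375 clones (left) and the WM115 clones (right), with error bars of 1 SE. Filled symbols were called and open ones were not. In A375 the called differences are those of the GAGE sum, from -3.88 to 2.11, and the SSX sum of clone 4.2 at -4.61, and in WM115 the MAGEC sum of clone 1.1 lies lowest at -5.98.

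The GAGE family, small acidic proteins encoded by tandem copies on Xp11.23, was the family whose level differed from WT in every A375 clone. A375 WT libraries had GAGE sums of 121, 111, 156 and 133 TPM. Clone 1.1 had 5.40, 9.53 and 9.23 TPM, clone 4.1 had 33.3, 24.8, 26.2 and 30.1 TPM, and clone 4.2 had 14.7, 14.5 and 12.9 TPM. Clone 1.2 had 560, 593, 606 and 493 TPM. No library of a clone lay within the WT range, and 3 clones were below it and 1 above. The group means differed 69.9-fold between clones 1.2 and 1.1. In bulk RNA, fewer cells with the transcript and less transcript per cell cannot be told apart. The GAGE sum differed from WT by -3.88 (SE 0.172, adjusted p = 9.7e-10) in clone 1.1, 2.11 (SE 0.159, adjusted p = 1.6e-07) in clone 1.2, -2.15 (SE 0.159, adjusted p = 1.14e-06) in clone 4.1 and -3.12 (SE 0.172, adjusted p = 1.53e-08) in clone 4.2.

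GAGE copies are so alike that the share of reads given to each is uncertain: every 50-base stretch of the annotated transcripts of GAGE2E, GAGE12C, GAGE12D, GAGE12E and GAGE12G also occurs in another member. Copies are therefore named with that limit. TPM are corrected for the length of each copy, so the family sum can also move with the split, and this was not tested. In A375 WT, GAGE2E took 30.4% of the sum, GAGE2A 26.9%, GAGE12C 12.9% and GAGE1 8.9%. In clone 1.2, GAGE2E (169 TPM of a mean sum of 563 TPM) was followed by GAGE12C with 21.6%, GAGE12D with 16.5% and GAGE1 with 13.2%, and GAGE2A took 8.6%. GAGE2A and GAGE12H led clone 4.1 with 30.9% and 30.5%, and GAGE2A led clone 4.2 with 59.3%.

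**Figure D3:**
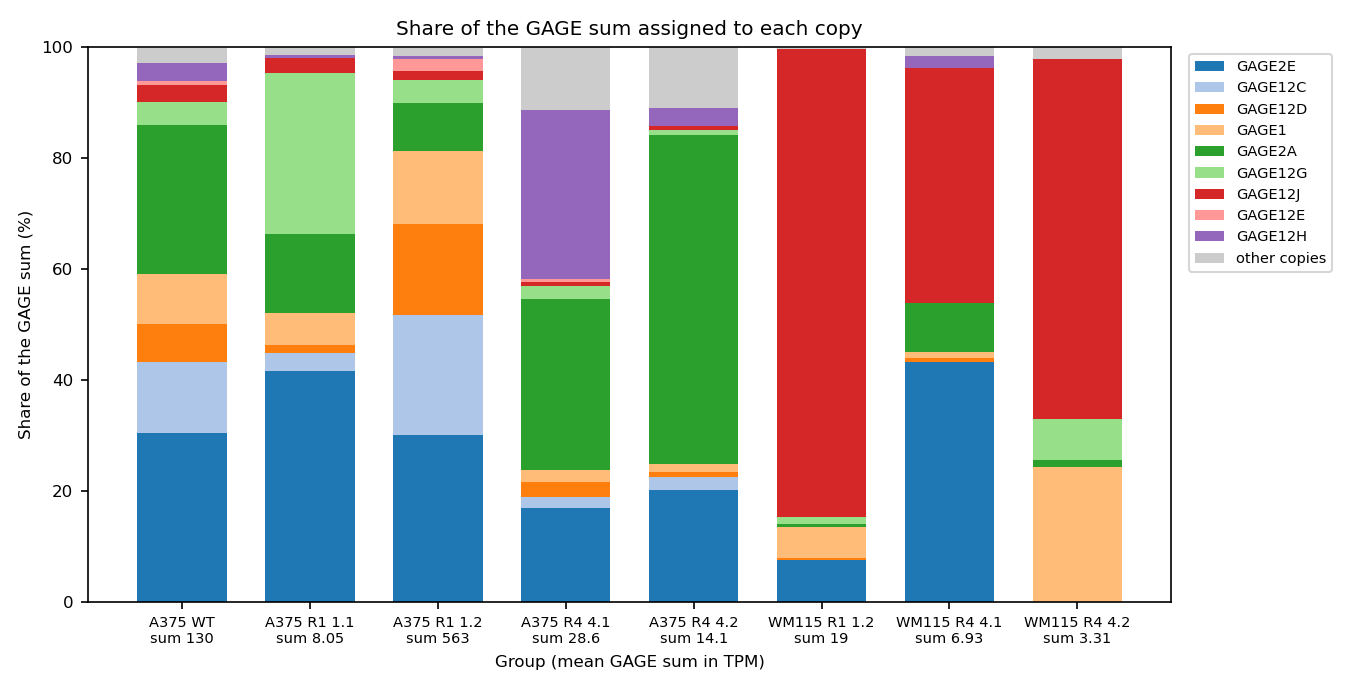
Share of the mean GAGE sum (vertical axis, %) given to each copy in the 5 A375 groups and in 3 WM115 clones, with the mean sum in TPM under each bar. GAGE2E, GAGE12C, GAGE12D and GAGE1 make up most of the bar in A375 clone 1.2, GAGE2A makes up 59.3% in A375 clone 4.2, and GAGE12J makes up 84.3% in WM115 clone 1.2.

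GAGE1 (ENSG00000205777) lies on chromosome X, 49589496 to 49608536, plus strand (GRCh38). Of its 50-base stretches 12.9% occur in other members, the lowest share among the GAGE copies checked. That share is of 3134 stretches from 4 annotated transcripts, against 354 to 492 stretches from 1 transcript in the other copies checked. GAGE1 also overlaps GAGE2A (49589529 to 49596827) on the same strand. The limit on the split of reads therefore holds for GAGE1 too. Its levels were 9.10, 8.39, 14.5 and 14.6 TPM in WT and 69.7, 79.5, 80.7 and 68.0 TPM in clone 1.2. They were at most 0.641 TPM in clone 1.1, 0.785 TPM in clone 4.1 and 0.510 TPM in clone 4.2. The levels of GAGE1 thus lay in 3 tiers that did not overlap, and the differences from WT were 2.61 (SE 0.202, adjusted p = 2.41e-07) in clone 1.2, -3.10 (SE 0.219, adjusted p = 4.1e-07) in clone 1.1, -2.97 (SE 0.202, adjusted p = 3.55e-07) in clone 4.1 and -3.37 (SE 0.219, adjusted p = 1.47e-07) in clone 4.2. GAGE12C went from 19.4, 17.6, 20.6 and 9.46 TPM in WT to 131, 122, 122 and 112 TPM in clone 1.2, and was between 0.172 and 0.414 TPM in clone 1.1. GAGE2A differed by -4.10 in clone 1.1 (SE 0.222, adjusted p = 1.26e-08), by -1.87 in clone 4.1 (SE 0.205, adjusted p = 8.16e-05) and by -1.93 in clone 4.2 (SE 0.222, adjusted p = 0.000119). In clone 1.2 its libraries, 42.2 to 55.4 TPM, overlapped those of WT, 25.7 to 43.3 TPM, and it was not called. GAGE12H was higher in all 4 libraries of clone 4.1 (7.75 to 9.74 TPM) than in WT (2.78 to 6.56 TPM), a difference of 0.91 that was not called (adjusted p = 0.178). GAGE2E was listed at 0 in 1 library of clone 1.1 and 1 of clone 4.1 while the other libraries of those clones had 4.84 to 7.63 TPM. Its call in clone 1.2, 2.06 (SE 0.588, adjusted p = 0.0367), was lost whenever any WT or clone 1.2 library was left out.

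In WM115 the GAGE genes were near 0 in WT and in clone 1.1 and were present in the other clones. GAGE sums were 0, 0.162, 0.358 and 0 TPM in WT and 0.093 to 0.378 TPM in clone 1.1. They were 20.8, 10.7 and 25.6 TPM in clone 1.2, 8.15, 7.04 and 5.60 TPM in clone 4.1, and 4.53, 2.42 and 2.99 TPM in clone 4.2. The differences of the sum from WT were 4.08 (SE 0.422, adjusted p = 2.01e-05) in clone 1.2, 2.81 (SE 0.422, adjusted p = 0.000175) in clone 4.1 and 1.91 (SE 0.422, adjusted p = 0.00437) in clone 4.2. Without library 3 of clone 1.2 its difference was 3.83 (adjusted p = 0.000233). In clone 1.3, library 2 had 10.5 TPM and the other two had 1.003 and 1.179 TPM, and the sum was not called. The copy that led in WM115 was GAGE12J, with 84.3% of the sum in clone 1.2, 42.3% in clone 4.1 and 64.8% in clone 4.2, whereas it took 9.85 of 563 TPM in A375 clone 1.2. GAGE12J had 18.2, 8.72 and 21.2 TPM in WM115 clone 1.2 and was listed at 0 in every library of WT and clone 1.1.

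Genes around the GAGE cluster outside the families were compared as well, a choice made after the values were seen. The nearest 2 tested genes on each side of GAGE12C, PPP1R3F and CCDC22 before it and USP27X and CLCN5 after it, were called in none of the 4 A375 clones, and their differences lay between -0.32 and 0.24. The median difference of the other tested genes of chromosome X was between -0.04 and 0.11 in the A375 clones.

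The SSX genes encode nuclear repressor proteins and are known as the fusion partners of SS18 in synovial sarcoma. SSX2 and SSX2B were expressed in all groups except A375 clone 4.2. SSX2 (ENSG00000241476, chromosome X, 52696896 to 52707189, minus strand) had 21.98, 11.4, 13.1 and 28.2 TPM in A375 WT, 12.8, 16.1 and 27.9 TPM in clone 1.1, 15.6, 23.3, 15.8 and 24.8 TPM in clone 1.2 and 11.8, 7.15, 12.9 and 18.7 TPM in clone 4.1. It was listed at 0 in all 3 libraries of clone 4.2. SSX2B (chromosome X, 52751132 to 52790305, plus strand) had 0, 0.122 and 0.049 TPM there against 7.99 to 32.2 TPM in WT. These 2 genes share 100% and 88.2% of their 50-base stretches with other members, so their levels cannot be separated, but both were absent or near 0 together. The difference of clone 4.2 from WT was -4.21 for SSX2 (SE 0.328, adjusted p = 1.23e-06), -4.25 for SSX2B (SE 0.416, adjusted p = 1.9e-05) and -4.61 for the SSX sum (SE 0.363, adjusted p = 1.48e-06). Of the other A375 clones, none was called for either gene. The nearest 2 tested genes outside the families on each side, MAGED1, GSPT2, FAM156B and FAM156A, had differences between -0.01 and 0.44 in clone 4.2 and were not called.

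SSX1 (ENSG00000126752, chromosome X, 48255317 to 48267444) separated the lines. It was at most 0.647 TPM in every A375 library and between 36.2 and 132 TPM in every WM115 library, and no WM115 clone was called for it. In WM115, SSX2 was between 37.5 and 124 TPM and SSX2B between 39.5 and 141 TPM, with no call in any clone. SSX5, named here after its values were seen, had 7.12, 6.30 and 7.57 TPM in WM115 clone 4.2 against 0.634, 0.544, 1.07 and 0.524 TPM in WT, a difference of 2.25 (SE 0.395, adjusted p = 0.000966). Library 2 of WM115 clone 1.2 had 4.96 TPM of SSX5 while the other two had 0.393 and 0.039 TPM.

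**Figure D4:**
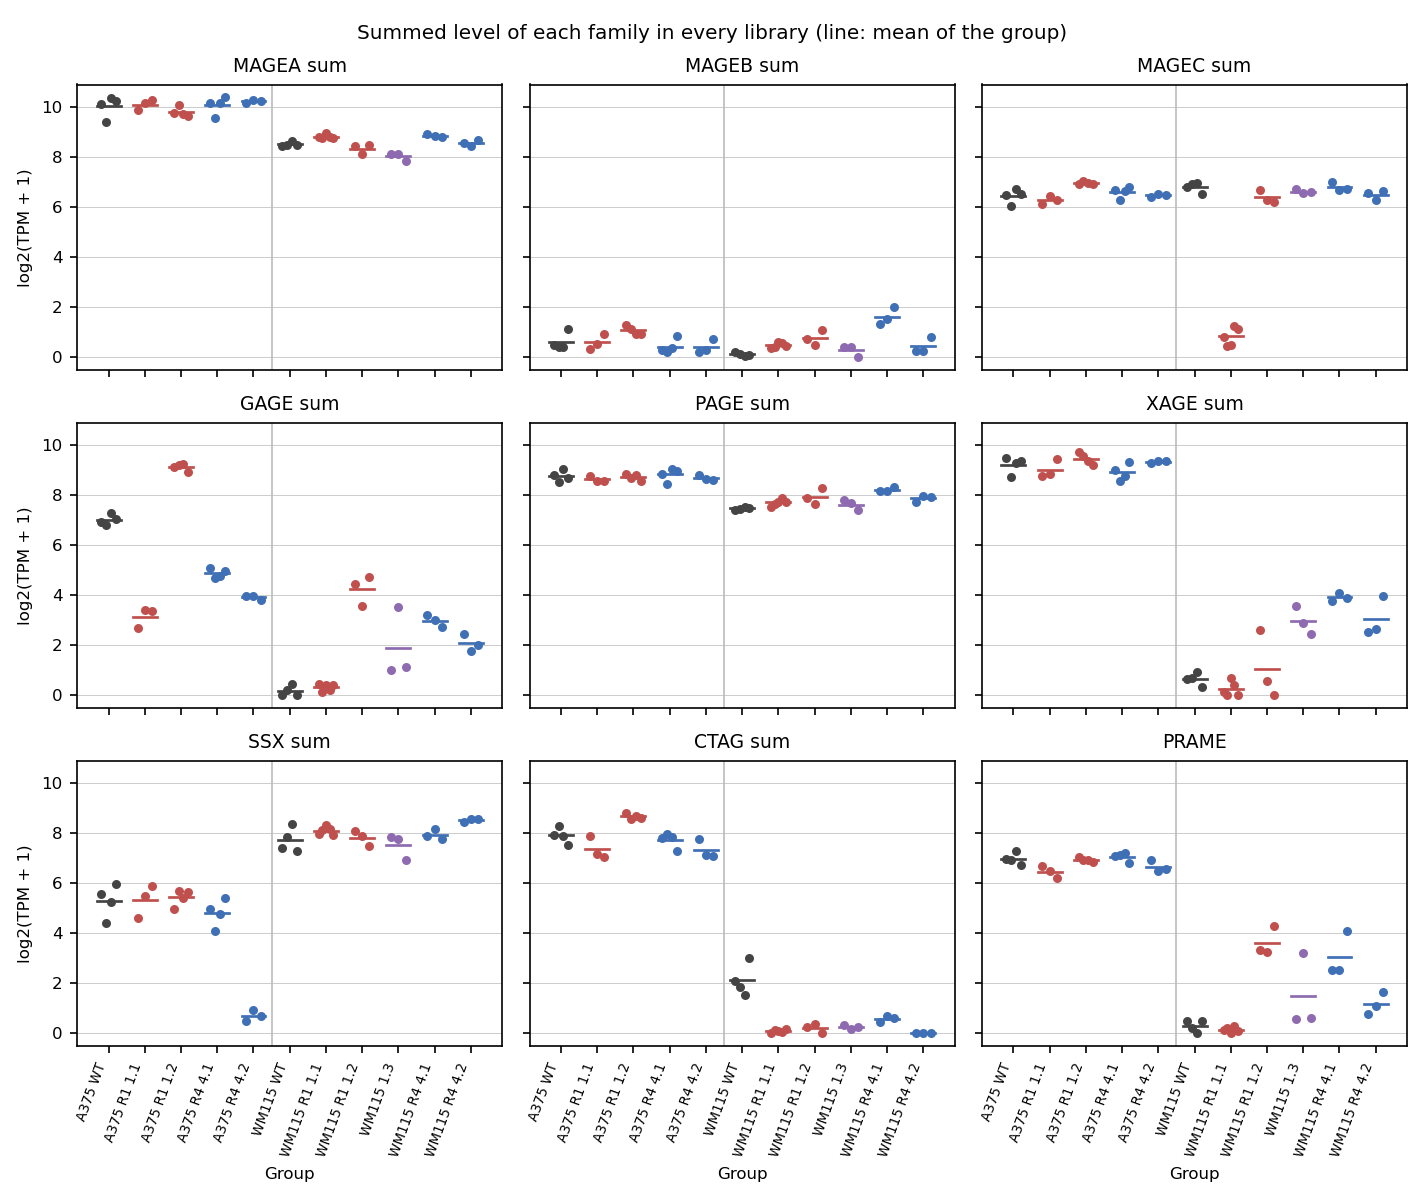
Summed level of each family and level of PRAME in every library, as log2(TPM + 1) (vertical axis), by group (horizontal axis), with WT in grey, R1 clones in red, R4 clones in blue and WM115 clone 1.3 in purple. Points are libraries and lines are group means. The GAGE panel shows the A375 clones below and above WT, the SSX panel shows clone 4.2 of A375 at 0.398 to 0.934 TPM, and the MAGEC panel shows WM115 clone 1.1 at 0.372 to 1.34 TPM.

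The MAGE-C genes lie next to each other on Xq27. MAGEC2 binds the RING ubiquitin ligase TRIM28, and MAGEC1 is a longer relative with a repeat-rich amino-terminal part. Both were at or near 0 in WM115 clone 1.1 and expressed in every other WM115 group. MAGEC2 (ENSG00000046774, chromosome X, 142202345 to 142205290, minus strand) had 65.2, 69.2, 78.9 and 50.2 TPM in WM115 WT and 0.057, 0.021, 0.025, 0.066 and 0.051 TPM in clone 1.1. The other WM115 clones had 49.8 to 89.9 TPM, a range that overlapped WT. MAGEC1 (ENSG00000155495, chromosome X, 141903894 to 141909388, plus strand) had 43.6, 46.8, 43.5 and 39.6 TPM in WT and 0.036, 0.086, 0.072, 0.146 and 0.063 TPM in clone 1.1. In the other 4 WM115 clones MAGEC1 had 18.2 to 37.4 TPM, below WT in all libraries, with differences of -0.58 to -0.92 that were not called. The differences of clone 1.1 were -5.98 for MAGEC2 (SE 0.127, adjusted p = 1.19e-16) and -5.36 for MAGEC1 (SE 0.143, adjusted p = 4.09e-15). Neither gene shares more than 0.3% of its 50-base stretches with another member.

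MAGEC3, which lies on the far side of MAGEC1, had 0.667, 0.265, 0.304, 1.13 and 1.08 TPM in WM115 clone 1.1 against 1.87 to 2.70 TPM in WT. Its difference was -0.96 (SE 0.229, adjusted p = 0.00624), just under the size required for a call. Of the nearest 2 tested genes outside the families on each side of MAGEC2, SLITRK2, 3612.5 kb further along, was called higher in clone 1.1 (1.06, SE 0.178, adjusted p = 0.000471), and SPANXD, SPANXA2 and FMR1 were not called.

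In A375, MAGEC2 was expressed in all groups, from 65.1 to 126 TPM, and was called in no clone. MAGEC1 was at most 0.236 TPM in WT and in clones 1.1, 4.1 and 4.2 of A375. In clone 1.2 it had 5.20, 4.52, 6.07 and 8.22 TPM, a difference from WT of 2.64. MAGEC1 passed the filter in A375 through clone 1.2 alone, and without the filter its adjusted p was 7.32e-09. Clone 1.2 was also the A375 clone in which the GAGE sum was higher.

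**Figure D5:**
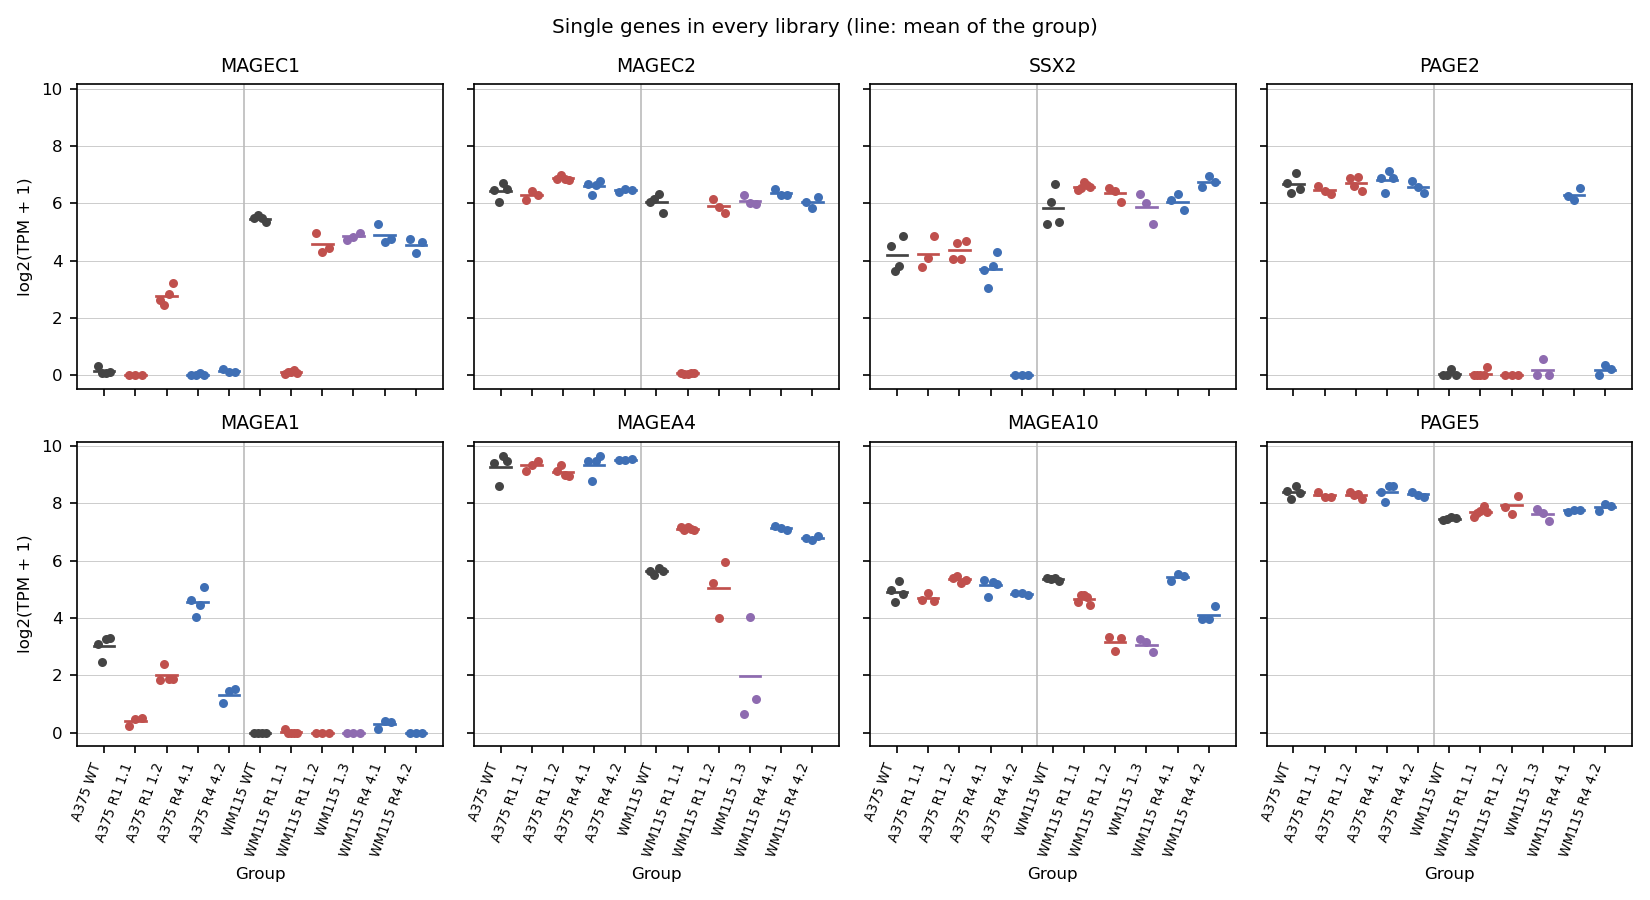
Level of 8 members in every library, as log2(TPM + 1) (vertical axis), by group (horizontal axis), with WT in grey, R1 clones in red, R4 clones in blue and WM115 clone 1.3 in purple. Points are libraries and lines are group means. MAGEC1 and MAGEC2 fall to the base of the axis in WM115 clone 1.1, SSX2 in A375 clone 4.2, PAGE2 rises in WM115 only in clone 4.1, and PAGE5 stays between 167 and 392 TPM in every library.

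The PAGE and XAGE families encode short proteins related to GAGE. PAGE5 (ENSG00000158639, chromosome X, 55220355 to 55224108, plus strand) was among the most abundant members in every library, 265 to 392 TPM in A375 and 167 to 308 TPM in WM115, and was called in no clone. Its neighbour PAGE2 (ENSG00000234068, chromosome X, 55089008 to 55092842, plus strand) was between 80.0 and 140 TPM in every A375 library. In WM115 it had 76.0, 68.0 and 91.8 TPM in clone 4.1, and at most 0.482 TPM in every other library, WT included. PAGE2 of clone 4.1 differed from WT by 6.25. It passed the WM115 filter through clone 4.1 alone, and without the filter its adjusted p was 6.11e-14. PAGE2B, named after its values were seen, had 3.06, 3.07 and 3.35 TPM in clone 4.1 against at most 0.124 TPM in WT (difference 1.93, adjusted p = 1.62e-06 without the filter, which it too passed through clone 4.1 alone). PAGE2 shares 38.6% of its 50-base stretches with PAGE2B. The tested genes around PAGE2 outside the families, APEX2, TRO, FAM104B and MAGEH1, were not called in clone 4.1, with differences between -0.20 and 0.58.

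XAGE1A and XAGE1B are near-identical copies in opposite orientation (100% and 76.3% of their 50-base stretches are shared). XAGE1A was between 326 and 708 TPM in A375 and was called in no A375 clone. In WM115 XAGE1A had 6.08, 6.68 and 6.02 TPM in clone 4.1 and at most 0.276 TPM in every other library, and clone 4.1 differed from WT by 2.83. XAGE1A passed the WM115 filter through clone 4.1 alone, and without the filter its adjusted p was 6.11e-14. XAGE2 and XAGE3, named after their values were seen, followed another order. XAGE3 had 0.411, 0.613, 0.561 and 0.259 TPM in WT and 10.5, 5.72 and 3.99 TPM in clone 1.3, 3.65, 4.21 and 3.44 TPM in clone 4.1 and 4.28, 4.93 and 12.1 TPM in clone 4.2. Its differences were 2.32 (SE 0.471, adjusted p = 0.0177), 1.71 (SE 0.471, adjusted p = 0.0141) and 2.35 (SE 0.471, adjusted p = 0.00242) in that order. XAGE2 was listed at 0 in all WT libraries and had 2, 2.74 and 3.69 TPM in clone 4.1. The XAGE sum differed from WT by 3.27 (SE 0.452, adjusted p = 7.93e-05) in clone 4.1, 2.42 (SE 0.452, adjusted p = 0.00155) in clone 4.2 and 2.32 (SE 0.452, adjusted p = 0.0134) in clone 1.3, where the call was lost without library 1 (adjusted p = 0.105). Without library 2 of clone 1.3, the difference there was 2.37 (adjusted p = 0.0482).

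In WM115 clone 4.1, 11 members were called higher (3.2% of all genes tested). These were PAGE1, PAGE2, PAGE2B, XAGE1A, XAGE2, XAGE3, GAGE2E, GAGE12J, MAGEB2, MAGEA4 and PRAME. PAGE1, PAGE2, PAGE2B, XAGE1A, XAGE2, GAGE2E and MAGEB2 would have failed the filter without this clone. Those 7 had to differ, so the count is a description and does not rank the clones. MAGEB2, named after its values were seen, had 1.46, 1.74 and 2.72 TPM in clone 4.1 against at most 0.037 TPM in WT (difference 1.51), and it carried the MAGEB sum, which differed by 1.5. Both passed the WM115 filter through clone 4.1 alone, and without the filter their adjusted p-values were 3.94e-06 and 3e-05. No other MAGEB gene reached 1 TPM in any library. In the same clone 6 of 8 melanocytic markers (TYR, DCT, TYRP1, MLANA, PMEL and MITF) were called lower. KRT14 and PECAM1 were called higher. The summed level of 4 keratinocyte and epithelial markers was 2.04 to 3.65 TPM in clone 4.1 and 0.212 to 0.627 TPM in WT, and that of 3 endothelial markers 3.06 to 4.999 TPM against 0.229 to 3.18 TPM. In clone 4.2, 5 of 8 melanocytic markers (TYR, DCT, TYRP1, MLANA and MITF) were called lower and KRT14 (1.35) and PECAM1 (1.57) higher, with summed levels of 1.47 to 2.58 TPM and 3.28 to 7.46 TPM for the keratinocyte and endothelial lists. The part of these in the members' results in clones 4.1 and 4.2 was not tested.

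The MAGE-A genes encode subunits that direct RING ubiquitin ligases to substrates, and MAGEA3 and MAGEA6 act on TRIM28. Several members of this family were called in no clone of either line. In A375, the highest group mean of MAGEA3, MAGEA6, MAGEA12, MAGEA2, MAGEA2B and MAGEA11 was 1.57, 1.55, 1.31, 1.76, 1.51 and 1.19 times the lowest, and in WM115 these ratios were 1.3, 1.26, 1.31, 1.36, 1.21 and 1.6. MAGEA3 was between 62.9 and 137 TPM in A375 and between 67.5 and 111 TPM in WM115. MAGEA11, a coregulator of the androgen receptor, was between 15.3 and 20.01 TPM and between 11.3 and 22.7 TPM. In WM115 clone 1.1 all libraries of MAGEA11, 11.7 to 14.2 TPM, lay below those of WT, 16.3 to 18.1 TPM, a difference of -0.42 (adjusted p = 0.011) that was too small for a call. MAGEA3 and MAGEA6 share 56.5% and 53.9% of their 50-base stretches with other members, and MAGEA2 and MAGEA2B 96.4% and 88.1%.

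MAGEA1 (ENSG00000198681, chromosome X, 153179285 to 153183880, plus strand) moved in both directions among the A375 clones. WT libraries had 7.45, 4.46, 8.67 and 8.93 TPM, clone 1.1 had 0.175, 0.392 and 0.436 TPM, clone 1.2 had 2.61, 4.31, 2.62 and 2.66 TPM, clone 4.1 had 23.8, 15.2, 20.6 and 32.98 TPM, and clone 4.2 had 1.02, 1.73 and 1.85 TPM. No library of any clone lay within the range of WT, and clone 4.1 alone lay above it. The differences were -2.62 (SE 0.253, adjusted p = 2.05e-05) in clone 1.1, -1.03 (SE 0.234, adjusted p = 0.01) in clone 1.2, 1.52 (SE 0.234, adjusted p = 0.00206) in clone 4.1 and -1.70 (SE 0.253, adjusted p = 0.00163) in clone 4.2. In WM115 MAGEA1 was at most 0.316 TPM and was listed at 0 in all WT libraries.

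MAGEA4 (ENSG00000147381, chromosome X, 151912509 to 151925170, plus strand) was the most abundant MAGE-A gene in A375, between 387 and 810 TPM, and was called in no A375 clone. WM115 WT libraries had 48.9, 44.4, 52.9 and 48.4 TPM. Clone 1.1 had 142, 133, 145, 138 and 134 TPM, clone 4.1 had 146, 140 and 133 TPM, and clone 4.2 had 111, 105 and 116 TPM, all above WT. Clone 1.2 had 36.0, 14.9 and 61.3 TPM, which overlapped WT, and clone 1.3 had 0.584, 15.5 and 1.27 TPM, all below it. The differences were 1.49 (SE 0.460, adjusted p = 0.0263) in clone 1.1, 1.5 (SE 0.524, adjusted p = 0.0436) in clone 4.1, 1.17 (SE 0.524, adjusted p = 0.121) in clone 4.2 and -3.67 (SE 0.524, adjusted p = 0.000643) in clone 1.3. Without library 2 of clone 1.3 the difference there was -4.71 (adjusted p = 7.17e-08). The calls of MAGEA4 in clones 1.1 and 4.1 were lost with a pseudocount of 0.1 or without the filter, although no library of those clones overlapped WT.

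The transcript table gave a further reading of MAGEA4. MAGEA4-201, whose first base is at chromosome X 151912889, made up 58.6% to 74.6% of the gene in A375 libraries and 1.0% to 21.8% in WM115 WT. MAGEA4-206, which starts 616 bases further along, made up 33.1% to 69.8% in WM115 WT. The mean level of MAGEA4-201 was 5.90 ± 3.85 TPM (SD, n = 4) in WM115 WT, 40.8 ± 13.7 TPM (n = 5) in clone 1.1, 33.3 ± 12.9 TPM (n = 3) in clone 4.1 and 29.4 ± 12.5 TPM (n = 3) in clone 4.2. Its highest WT library had 9.66 TPM and the lowest library of these 3 clones 19.6 TPM. Transcript shares are estimates and were not tested.

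MAGEA10 (ENSG00000124260, chromosome X, 152133310 to 152138578, minus strand) had 41.1, 40.1, 40.7 and 38.3 TPM in WM115 WT. It had 8.996, 6.20 and 8.80 TPM in clone 1.2, 8.54, 7.90 and 6.01 TPM in clone 1.3 and 14.5, 14.5 and 20.6 TPM in clone 4.2, all below WT. Clone 4.1, at 38.0, 45.2 and 43.0 TPM, overlapped WT, and clone 1.1 had 20.8 to 27.0 TPM. The differences were -2.20 (SE 0.149, adjusted p = 3.23e-08) in clone 1.2, -2.29 (SE 0.149, adjusted p = 1.71e-08) in clone 1.3 and -1.25 (SE 0.149, adjusted p = 3.23e-05) in clone 4.2, and that of clone 1.1, -0.69 (adjusted p = 0.00136), was too small for a call. Without library 3 of clone 1.2 its difference was -2.27 (adjusted p = 3.24e-07). In A375 MAGEA10 was between 22.7 and 43.6 TPM and was called in no clone. In clone 1.3 MAGEA4 and MAGEA10 were both called lower, and in clone 1.1 MAGEA4 was called higher while MAGEA10 lay below WT.

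PRAME (ENSG00000185686, chromosome 22, 22547701 to 22559361, minus strand), a leucine-rich repeat protein known as a repressor of retinoic acid receptor signalling and a substrate receptor of CUL2 ubiquitin ligases, was between 73.7 and 156 TPM in A375 and was called in no A375 clone. WM115 WT libraries had 0.396, 0.149, 0.024 and 0.414 TPM. Clone 1.2 had 9.17, 8.60 and 18.5 TPM and clone 4.1 had 4.78, 4.80 and 16.2 TPM. Clone 1.3 had 8.41 TPM in library 2 and 0.513 and 0.530 TPM in the other two, and clone 4.2 had 0.724, 1.14 and 2.15 TPM. The differences were 3.33 in clone 1.2 (SE 0.494, adjusted p = 0.000301) and 2.75 in clone 4.1 (SE 0.494, adjusted p = 0.000797). Without library 3 of clone 1.2, in which SOX10 was at 9.56 TPM, the difference was 3.0 (adjusted p = 0.00435). In clone 1.2, 4 of 8 melanocytic markers (DCT, SOX10, MLANA and MITF) were called lower. These marker calls include library 3 and are not given without it. SOX10 had 279 and 272 TPM in libraries 1 and 2 of clone 1.2, against 449 to 553 TPM in WT. The 3 endothelial markers summed to 2.73 to 16.3 TPM in clone 1.2. The part of these markers in the PRAME result was not tested. PRAME lies on the chromosome of SOX10. The other tested genes of chromosome 22 had a median difference of -0.45 in clone 1.2, where PRAME rose, against -0.02 over all genes, and of -0.08 in clone 4.1. TOP3B, PPM1F, GNAZ and RAB36, the nearest 2 tested genes on each side of PRAME, were called in neither clone.

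CTAG1A and CTAG1B encode the same antigen, NY-ESO-1, and share 90.3% and 89.9% of their 50-base stretches. In A375 they were abundant, CTAG1A at 67.2 to 247 TPM and CTAG1B at 60.4 to 206 TPM. Both were higher in every library of clone 1.2 (CTAG1A 247, 198, 213 and 211 TPM) than in WT (CTAG1A 134, 164, 109 and 86.0 TPM), by 0.85 (adjusted p = 0.0257) and 0.71 (adjusted p = 0.0565), which is below the size required for a call. CTAG2, the related LAGE-1 gene, named after its values were seen, had 3.53, 3.91, 3.72 and 3.44 TPM in A375 WT, 0.744, 0.660 and 0.699 TPM in clone 1.1, 1.17, 0.608, 0.649 and 0.230 TPM in clone 4.1 and 1.13, 0.925 and 1.29 TPM in clone 4.2. Its differences were -1.45 (SE 0.172, adjusted p = 0.000198), -1.51 (SE 0.159, adjusted p = 5.32e-05) and -1.14 (SE 0.172, adjusted p = 0.00185). In clone 1.2, with 1.13 to 1.75 TPM, the difference was -0.92. CTAG1B of WM115 had 1.013, 2.63, 1.68 and 5.36 TPM in WT and at most 0.539 TPM in every clone library, and was listed at 0 in all 3 libraries of clone 4.2. Its differences lay between -1.21 in clone 4.1 and -1.74 in clone 4.2. CTAG1B passed the filter in WM115 through WT alone, and without the filter the adjusted p was 0.00421 and 0.000433 in these clones. CTAG1A was at most 2.30 TPM in WT and listed at 0 in every clone library.

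Clones of the same region were also set against each other. Each arm is the libraries of 1 clone, so this describes how 2 clones differ. Whether a difference from WT went with the deletion or with the clone cannot be told apart in this way. In A375, clone 1.2 had 16 members called higher than clone 1.1 and 0 lower (4.68% and 1.47% of all genes tested). The GAGE sum differed by 5.99 (SE 0.172, adjusted p = 8.05e-13), MAGEC1 by 2.77 (adjusted p = 7.57e-09 without the filter), MAGEA1 by 1.59 (adjusted p = 0.000527), CTAG1A by 1.43 (adjusted p = 0.000947) and CTAG1B by 1.16 (adjusted p = 0.00419). Clone 4.2 had 0 members called higher than clone 4.1 and 4 lower (0.953% and 1.28%). These were MAGEA1 (-3.22, SE 0.253, adjusted p = 2.12e-06), GAGE12H (-2.78, adjusted p = 6.06e-05), SSX2 (-3.70, adjusted p = 5.75e-06) and SSX2B (-3.87, adjusted p = 4.34e-05). In WM115, clone 1.2 had 5 members called higher than clone 1.1 and 2 lower (8.51% and 3.25%). MAGEC2 differed by 5.84, MAGEC1 by 4.46, GAGE12J by 4.0, PRAME by 3.48 and GAGE2E by 1.14, all higher in clone 1.2, and MAGEA4 by -2.07 and MAGEA10 by -1.52. Without library 3 of clone 1.2 these were 5.95, 4.52, 3.77, 3.15 and 0.91 and then -2.52 and -1.59, and the call of GAGE2E was lost (adjusted p = 0.054). GAGE2E would have failed the filter without clone 1.2, 1 arm of this comparison, and so had to differ. Clone 4.2 had 1 member called higher than clone 4.1, SSX5, and 8 lower (0.806% and 1.82%). Of these 8, 6 passed the filter through clone 4.1, 1 arm of the comparison, and had to differ: PAGE1, PAGE2 (-6.11), PAGE2B, XAGE1A (-2.84), GAGE2E and MAGEB2. Without the filter the adjusted p was 2.41e-13 for both PAGE2 and XAGE1A. The other two were MAGEA10 (-1.31, SE 0.16, adjusted p = 3.57e-05) and PRAME (-1.88, SE 0.528, adjusted p = 0.0387). Each pair of clones with the same deletion thus had members that differed between them.

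With the clone as the unit, 4 R4 clones were compared with 4 R1 clones over both lines. Of 40 members tested by limma, 0 were called in either direction (0% of all 18099 genes tested in each direction), and the smallest adjusted p among the members was 0.984. Unadjusted p-values under 0.05 were found for 1 member, XAGE3, and for 754 of all genes. XAGE3 differed by 1.008 with an SE of 0.41. The GAGE sum differed by -0.75 with an SE of 1.31, the SSX sum by -1.17 with an SE of 0.881, the MAGEC sum by 1.48 with an SE of 1.12 and the XAGE sum by 1.36 with an SE of 0.567 (adjusted p = 0.984).

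WT cells of the lines were compared last. Of 33 members tested, 5 were called higher in WM115 and 20 lower (13.1% and 9.55% of all genes tested), and the median difference of the members was -2.22 against 0.04 over all genes. The 5 higher in WM115 were SSX1 (5.96), MAGEC1 (5.33), SSX2B (1.88), MAGEC3 (1.65) and SSX2 (1.61). The greatest differences in the other direction were those of XAGE1A (-8.93, SE 0.166), PRAME (-6.68, SE 0.172), PAGE2 (-6.61, SE 0.171), XAGE1B (-6.59, SE 0.199) and CTAG1A (-6.06, SE 0.387). Members near 0 in 1 line passed the filter through the other line alone, so these counts and the median are a description. MAGEC2, MAGEA3, MAGEA6, MAGEA2, MAGEA10, MAGEA11, MAGEA12 and PAGE5 were the 8 tested members not called. Line and culture history cannot be told apart in this comparison.

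Other genes bearing on these families were read from lists. In a list of 30 genes of DNA methylation and silencing, 29 were tested and 0 were called in any of the 9 clones against WT by limma. Over all genes tested, 0.108% to 4.49% were called in a given direction in a clone. Of the 261 tests of the list, 40 had an unadjusted p under 0.05. Over all genes, 1297 to 3530 of 16692 had one in an A375 clone and 2212 to 6300 of 16997 in a WM115 clone. An adjusted p under 0.05 was found in 15 of the 261 tests, with differences of at most 0.85 in size. These counts are a description. DNMT1, the maintenance DNA methyltransferase, had 74.5 to 236 TPM in A375 and 59.5 to 164 TPM in WM115, and DNMT3B, a de novo enzyme, 0.901 to 3.63 TPM and 1.58 to 4.89 TPM. UHRF1, the partner that brings DNMT1 to replicated DNA, ranged from 18.4 to 172 TPM and from 18.7 to 69.4 TPM, with differences from WT between -0.47 and 1.08. Between the WT lines 3 of the 29 were called, DNMT3A (1.007) and RING1 (1.08), a Polycomb ubiquitin ligase subunit, higher in WM115 and RNF2 (-1.23), its paralogue, lower. Of all genes tested, 13.1% were called higher in WM115 and 9.55% lower. CTCFL (BORIS), a germline CTCF relative described as an activator of cancer-testis genes, was at most 0.069 TPM in any library. TRIM28, a partner of MAGE-A3, MAGE-A6 and MAGE-C2, had 776 to 1794 TPM in A375 and 564 to 928 TPM in WM115 and was not called in a clone.

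A list of 41 other cancer-testis and germline genes had 23 tested in A375 and 11 in WM115. Called higher in A375 clone 1.2 were 7 of 23 (2.57% of all genes tested), among them SPANXA2 (0.266 TPM in WT and 35.8 TPM in the clone, difference 4.84), SPANXC (4.23), SPANXD (3.37), SPANXB1 (3.13) and SPANXA1 (2.09). The others were NXF2 and NXF2B. Sharing of reads among the SPANX genes or between NXF2 and NXF2B was not assessed, so these 7 may not be independent. The SPANX genes encode sperm nuclear proteins, and SPANXA2 and SPANXD lie beside the MAGE-C genes. SPANXB1 was called lower in clones 1.1 (-1.84), 4.1 (-2.03) and 4.2 (-2.03) of A375, and the near-identical NXF2 and NXF2B, germline mRNA export genes, in clones 4.1 and 4.2. WM115 clone 1.2 had 4 of 11 called higher (4.49% of all genes tested), PASD1 (3.30), SPANXB1 (2.83), SPANXC (2.57) and SPANXA2 (2.48), and without library 3 these were 3.08, 2.89, 2.69 and 2.40. Of the called genes, SPANXA1, SPANXA2, SPANXC and SPANXD in A375 and PASD1 in WM115 passed the filter through clone 1.2 alone and had to differ. In WM115 clone 4.1 had 2 (SPANXB1, 2.37, and SPANXD, 1.86) and clone 4.2 had 1 (SPANXD, 1.81). Between the WT lines 2 were called higher in WM115 and 14 lower (13.1% and 9.55% of all genes tested). Of 17 genes for partners of MAGE and PRAME proteins, RXRG was called lower in A375 clones 1.1 (-3.50), 1.2 (-4.20) and 4.2 (-2.75) and in WM115 clone 1.2 (-2.80). Over all genes tested, 0.545%, 1.44%, 0.365% and 3.11% were called lower in these clones. RARB, a retinoic acid receptor, was the 1 of 17 called higher in WM115 clone 1.2 (1.46), against 4.49% of all genes tested. PRAME was also called higher in that clone, and a link between them was not tested. Without library 3 of that clone RARB was still called (1.23), and the difference of RXRG was -1.02 and was not called (adjusted p = 0.0541). Of 11 MAGE genes of broad expression 7 were tested, and NDN was called lower in A375 clone 1.1 (-1.42) and higher in WM115 clone 1.2 (3.98), where MAGEE1 was called higher too (1.89). NDN and MAGEE1 passed the WM115 filter through clone 1.2 alone, and without library 3 they differed by 3.61 and 1.63.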

How the data were processed

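RNA-seq of poly-A selected RNA was measured in 39 libraries, and the authors deposited gene and transcript tables in TPM. The submitters' processing notes name DRAGEN and GRCh38, and its version, the counting and strand settings are not given in the sources used here. The gene table has 60871 lines, of which 200 repeat others and were used once, and 6 columns of values of no sample here were not used. TPM keep no depth, so no counting interval or floor was computed.

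Families were summed in TPM. Values were tested as log2(TPM + 1), with a pseudocount of 1, with limma (version 3.58.1, R version 4.3.3). Lines were fitted separately with 1 coefficient per group, empirical Bayes moderation with a variance trend, two-sided tests and Benjamini-Hochberg adjustment over all genes with at least 1 TPM in at least 3 libraries. For the family sums, members were replaced by their sums in the same fit. The R4 and R1 clones were compared on clone means with the line as a covariate, 8 clones in all. The fit was checked on simulated data.

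Every family sum and the 30 members with the highest group mean are named, members called outside these are named as such, and lists name up to 5 called genes and a few fixed genes. Members and lists were chosen with earlier results of these data known. Positions are from GENCODE 29 (GRCh38) and upstream windows from RefSeq (GRCh38.p14). No window was matched for CTAG1A, CTAG1B, CTAG2, GAGE2E, MAGEA1, MAGEA10, MAGEB17 and SSX3.

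Replicate numbers in the labels were checked for pairing by the correlation of deviations from group means. They paired libraries between A375 clone 4.1 and WT alone, with correlations of 0.326 to 0.776 in 4 pairs. Alternatives were a pseudocount of 0.1, no filter, median-of-ratios scaling, the replicate number as a block, and leaving out each library.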

Additional observations from a re-analysis of the deposited data

Results flagged for a closer look

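In groups of 4 or 5 libraries, a library was noted when it stood far from the others for a family sum or a member. This was so for 7 of 136 checks, each of 1 member or sum in 1 group, and chance alone gives about 1 in 20. The checks are not independent, since MAGEA3 and MAGEA6 share sequence and are parts of the MAGEA sum. In WM115 clone 1.1, library 3 had a MAGEA sum of 498.59 TPM against 430.208 to 448.047 TPM in the others, with MAGEA3 at 111.224 TPM (94.035 to 95.693 TPM) and MAGEA6 at 85.782 TPM (65.275 to 70.513 TPM). In WM115 WT, library 3 had 97.781 TPM of MAGEA3 against 82.76 to 84.763 TPM. MAGEA1 was 4.313 TPM in library 2 of A375 clone 1.2 against 2.607 to 2.658 TPM. SSX2B was lowest in library 1 of A375 clone 1.2, 14.081 TPM against 24.933 to 26.786 TPM, and XAGE1B was lowest in library 2 of A375 WT, 63.371 TPM against 107.15 to 115.368 TPM.

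Some members were called in opposite directions against WT in 2 clones with the same deletion. They were picked for that, so the differences between the clones had to be large and are given as a description. Clone 1.2 of A375 exceeded clone 1.1 by 5.992 (log2(TPM + 1)) for the GAGE sum, 5.681 for GAGE2E, 6.608 for GAGE12C, 6.369 for GAGE12D, 5.711 for GAGE1 and 3.103 for GAGE12J. MAGEA1 differed by -3.217 between clones 4.2 and 4.1 of A375.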

How the results depend on the processing

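Of 126 calls of named members and family sums, none changed direction under any alternative run, and 109 remained calls under all alternatives other than the replicate block. Scaling by median of ratios kept 125, the fit without a filter 121 and a pseudocount of 0.1 kept 116. Leaving out a library kept 2139 of 2193. The pseudocount of 0.1 lost 10 calls and the fit without the filter 5, and not all are named here. Among those lost under both were MAGEA4 in WM115 clones 1.1 and 4.1, GAGE2E in A375 clone 1.2 and PRAME between WM115 clones 4.2 and 4.1. Among those lost under the pseudocount alone were GAGE2E in the other 3 A375 clones and the XAGE sum in WM115 clone 1.3. Counts of called members went beyond 1.5 times their main value on leaving out a library in WM115 clone 4.1 against WT (5 to 12, main count 12) and in WM115 clone 4.2 against clone 4.1 (3 to 10, main count 9). The low counts, 6, 5 and 7 for the former and 4, 4 and 3 for the latter, came without libraries 1, 2 and 3 of clone 4.1, when 23 instead of 28 members passed the filter. With the replicate number as a block, 1 member was called in A375 clone 1.1 (10 without it), 5 in A375 clone 4.2 (11), 3 in WM115 clone 1.2 (5), 0 in WM115 clone 1.3 (4), and 0 family sums in clone 1.3 (2), and 100 of 122 calls were kept. These fits use the numbers shared by both groups alone, and the numbers did not pair those libraries. In A375 clone 4.1, where they did, 9 members were called with the pairing and 8 without it, and the block ended no call. TPM without read counts leave the precision of low levels unknown, and the split among GAGE, SSX2, XAGE1, CTAG1 and MAGEA2 copies is uncertain.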
